A study of Mus musculus with 12 samples.

Results

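Cholesterol and fatty acid synthesis was followed through 32 genes, chosen by name as the enzymes of both pathways and the regulators that sense sterols, out of the 38127 genes counted in each library. They comprise 7 genes of the mevalonate arm, 11 genes from squalene to cholesterol, 10 genes of fatty acid synthesis, elongation, and desaturation, and 4 regulators. Of the 32, 31 passed the low count filter. The exception was *Mvd*, mevalonate diphosphate decarboxylase, which had 0 counts in all 12 libraries. At these depths 0 counts allows a level of up to 0.0944 CPM (counts scaled to a normalized library size; 3 counts in the shallowest library, counting error only), and the cause of the 0 was not tested.

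Cells make cholesterol from acetyl-CoA. The mevalonate arm condenses acetyl-CoA into mevalonate and converts it to farnesyl diphosphate, squalene synthase joins farnesyl units into squalene, and a series of ring-forming and demethylating enzymes ends in cholesterol. Fatty acids start from the same acetyl-CoA, which acetyl-CoA carboxylase and fatty acid synthase build into palmitate, and elongases and desaturases then lengthen and unsaturate it. SREBP transcription factors switch on the genes of both pathways; they are held in the endoplasmic reticulum by INSIG proteins when sterols are plentiful. The liver is a major site of both pathways, and fetal tissues also make much of their own sterol.

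RNA was sequenced from cells sorted from C57BL/6 fetal liver (FL; C57BL/6J in the study's methods), with 3 libraries per group and no genetic alteration or treatment. At embryonic day (E) 14.5 the groups were P2 cells (Ter119−CD45−CD54−CD31−Kit+CD24+), CD31+ cells (Ter119−CD45−CD54+CD31+), and cells labelled Ter119−CD45−CD54+CD31−, for which the study's name CD324+ is used here. The fourth group was the same CD54+CD31− phenotype at E18.5. The study states independent litters for the E14.5 groups; where nothing says that libraries came from separate animals, p-values measure only the spread between these samples. In bulk libraries, fewer cells of a type and less RNA per cell cannot be told apart.

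Total counts ranged from 40714017 to 64368883 per library. Markers of the sorted cells followed the labels at E14.5. The summed level of 9 hepatoblast markers was 65599 to 74987 CPM in CD324+ cells, 632 to 645 in P2 cells, and 774 to 838 in CD31+ cells. The summed level of 8 endothelial markers was 7290 to 7782 CPM in CD31+ cells and at most 302 CPM in the other E14.5 libraries. The 302 CPM were those of P2 replicate 2, which stood apart from the other P2 libraries at 47.5 and 80.1 CPM. Without it, 30 members were called lower and 0 higher against CD324+ cells, and 25 higher and 5 lower against CD31+ cells. Over all genes that fit called 10522 against CD324+ cells (47.2% of them higher) and 11003 against CD31+ cells (46.5% higher). With all libraries, 36.1% of all genes were called lower and 33.8% higher against CD324+ cells. Against CD31+ cells these shares were 39.4% lower and 34.3% higher. The summed level of 8 erythroid markers was 1821 to 2020 CPM in P2 cells and at most 471 CPM in the others, with *Alas2* at 0 counts in every group. The E18.5 libraries stood apart from their label. The summed level of 8 lung epithelium markers was 21218, 9531, and 9742 CPM in them and at most 249.8 CPM in the E14.5 libraries. Most of the E14.5 sum was *Abca3*, at up to 246 CPM. *Sftpc*, the gene of a surfactant protein made by alveolar cells, did not exceed 1.73 CPM at E14.5. The summed level of 8 stellate and mesenchymal markers was 3940 to 4371 CPM at E18.5 and at most 238.5 CPM at E14.5. In E18.5 replicate 1 the summed hepatoblast level was 5434 CPM, against 40813 and 53091 CPM in the other 2. All 3 E18.5 libraries carried the lung markers, so the comparison with E18.5 is given with and without replicate 1 only.

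Promoters of the members were searched for DNA elements known from sterol-regulated genes. RefSeq promoter windows of 300 bases (250 before to 50 after the start, GRCm38.p6) were found for 26 of the 32 members, 33 windows in all. *Fdps*, *Fdft1*, *Sqle*, *Scd1*, *Scd2*, and *Fads1* had no window. The windows below are those of *Hmgcs1*, the member that differed most between P2 and CD324+ cells, of *Mvk* and *Nsdhl*, whose windows hold the most CCAAT boxes beside it, and of *Fasn*, the central enzyme of fatty acid synthesis. Capitals mark CCAAT, the box bound by NF-Y, on either strand, and in *Hmgcs1* also the sterol regulatory element TCACNCCAC.
Hmgcs1, chr13:119690101-119690400, plus strand: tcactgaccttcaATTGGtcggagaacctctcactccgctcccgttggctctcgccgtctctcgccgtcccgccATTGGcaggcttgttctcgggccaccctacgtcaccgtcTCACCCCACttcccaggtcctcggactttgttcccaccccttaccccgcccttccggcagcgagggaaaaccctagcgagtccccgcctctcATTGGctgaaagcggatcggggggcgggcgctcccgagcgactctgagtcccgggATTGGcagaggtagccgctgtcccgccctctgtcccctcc
Mvk, chr5:114444019-114444318, plus strand: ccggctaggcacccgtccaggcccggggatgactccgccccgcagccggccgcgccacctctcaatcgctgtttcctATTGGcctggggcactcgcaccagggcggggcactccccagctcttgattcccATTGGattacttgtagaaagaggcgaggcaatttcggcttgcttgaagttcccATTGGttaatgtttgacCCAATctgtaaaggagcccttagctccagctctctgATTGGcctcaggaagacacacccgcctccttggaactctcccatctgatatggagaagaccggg
Nsdhl, chrX:72918271-72918570, plus strand: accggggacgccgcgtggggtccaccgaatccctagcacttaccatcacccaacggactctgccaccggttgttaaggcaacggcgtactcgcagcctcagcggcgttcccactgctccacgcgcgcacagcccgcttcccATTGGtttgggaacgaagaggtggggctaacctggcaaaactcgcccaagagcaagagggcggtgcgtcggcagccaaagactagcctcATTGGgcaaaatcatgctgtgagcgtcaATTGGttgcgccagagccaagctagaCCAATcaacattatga
Fasn, chr11:120824498-120824797, minus strand: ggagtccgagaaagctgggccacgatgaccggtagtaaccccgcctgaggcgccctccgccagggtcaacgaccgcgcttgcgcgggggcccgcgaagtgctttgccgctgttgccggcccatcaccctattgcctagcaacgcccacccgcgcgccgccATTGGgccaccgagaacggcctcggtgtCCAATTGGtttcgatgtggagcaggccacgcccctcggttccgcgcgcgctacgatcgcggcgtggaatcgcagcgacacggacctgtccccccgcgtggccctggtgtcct

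The sterol regulatory element of *Hmgcs1* was read as TCACCCCAC and lay 137 bases before the start. It was the only window of a member with a match to TCACNCCAC, searched on both strands, against 1.24% of all 32851 windows. *Hmgcs1* held 4 CCAAT boxes, *Mvk* 5, *Nsdhl* 4, and *Fasn* 3, of which 2 overlap. CCAAT was found in 23 of the 33 windows of members (69.7%) and in 37.1% of the 14287 windows of genes tested at E14.5 (37.4% of all windows). The GC box GGGCGG was also in 23 of the 33 windows, against 58.4% of the windows of genes tested and 35.7% of all windows, and the E-box CACGTG was in 5, against 9.34% and 7.15%. Median GC content was 61.3% in the members' windows, 60% in those of genes tested, and 52.7% in all. A match describes letters only.

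All 31 members tested differed among the 3 E14.5 populations (adjusted p below 0.05, test of both population coefficients), as did 86.9% of all 15461 genes tested. A count of members called is therefore read here against the share of all genes called in the same direction. The members' summed levels show the size of the differences. The sterol arms together (mevalonate to cholesterol) had 3941, 4240, and 4504 CPM in the 3 CD324+ libraries, 329, 314, and 329 CPM in the P2 libraries, and 199.6, 219.6, and 216.3 CPM in the CD31+ libraries. The groups did not overlap, and the mean in P2 cells was 7.66% and that in CD31+ cells 5.01% of the mean in CD324+ cells. For the 9 hepatoblast markers, the same percentages were 0.889% and 1.13%. The fatty acid arm had 5097, 4752, and 5257 CPM in CD324+ cells, 1582, 1533, and 1761 CPM in P2 cells, and 690.4, 810.5, and 817.5 CPM in CD31+ cells, with P2 cells at 32.3% and CD31+ cells at 15.3% of CD324+ cells. The regulators had 740.3, 701.7, and 737.5 CPM in CD324+ cells, 312.9, 316.2, and 320.0 CPM in P2 cells, and 124.7, 137.3, and 138.7 CPM in CD31+ cells. In each of the 3 groups of genes the order was CD324+ above P2 above CD31+ cells, without overlap. The part of the cell type markers in these differences was not tested.

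**Figure D1:**
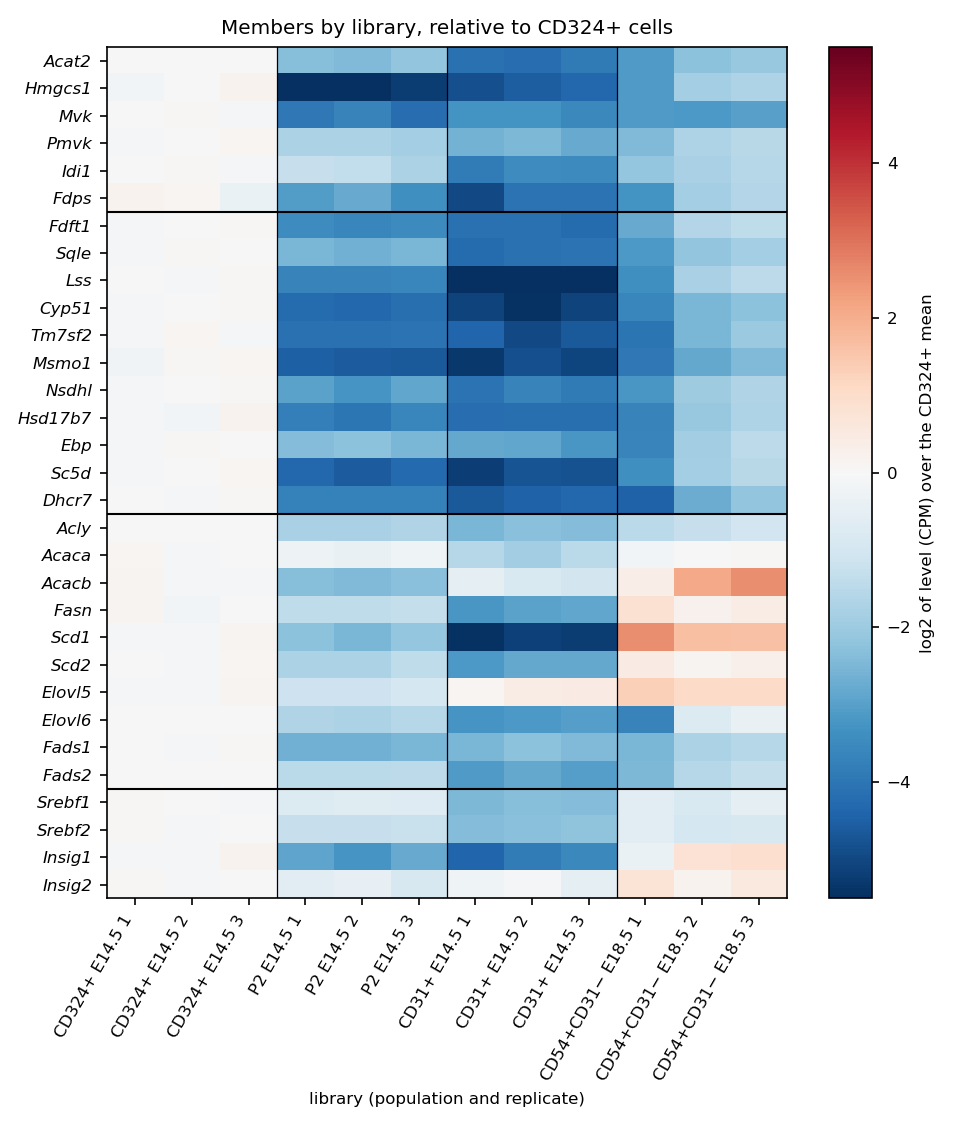
Level of each of the 31 members detected (rows, grouped from the top into mevalonate arm, squalene to cholesterol, fatty acids, and regulators) in each of the 12 libraries (columns), as the log2 of its CPM over the mean of the 3 CD324+ libraries, on a color scale from blue (lower) to red (higher). P2 and CD31+ columns are blue in the sterol rows, *Elovl5* is light red in CD31+ cells, and the E18.5 columns are blue in the sterol rows and red for *Scd1*, *Elovl5*, and, in replicates 2 and 3, *Acacb*.

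Compared per kilobase of exon, the members spanned a wide range of levels in CD324+ cells. The highest was *Scd2*, a stearoyl-CoA desaturase, with 305 ± 24.7 CPM per kb (SD, n = 3 libraries), followed by *Hmgcs1*, the cytosolic HMG-CoA synthase, with 241 ± 28.8, and *Acly*, ATP citrate lyase, which supplies cytosolic acetyl-CoA, with 145 ± 3.36. The lowest were *Acacb*, the mitochondrial acetyl-CoA carboxylase, with 1.02 ± 0.0855 CPM per kb and *Fdps*, farnesyl diphosphate synthase, with 2.63 ± 0.529. In P2 cells *Scd2* was again highest, with 99.2 ± 13.1 CPM per kb, but *Hmgcs1* was at 5.78 ± 0.593, below *Acly* at 43.5 ± 1.90, *Fasn* at 33.2 ± 0.944, *Fads2* at 30.6 ± 0.445, and *Srebf1* at 28.2 ± 0.615. Levels per kb use the exons of all annotated transcripts of a gene. They are uncertain for members whose 50-base stretches recur in other genes, which was so for 39.1% of *Acat2*, 30.4% of *Acaca*, 26.2% of *Fdps*, 17.7% of *Idi1*, 9.87% of *Tm7sf2*, and 9.38% of *Fdft1*. *Fdps* also had the widest relative spread between E14.5 libraries of a group, with a coefficient of variation of up to 31.2%, where the median over members was between 5.21% and 11.9%.

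**Figure D2:**
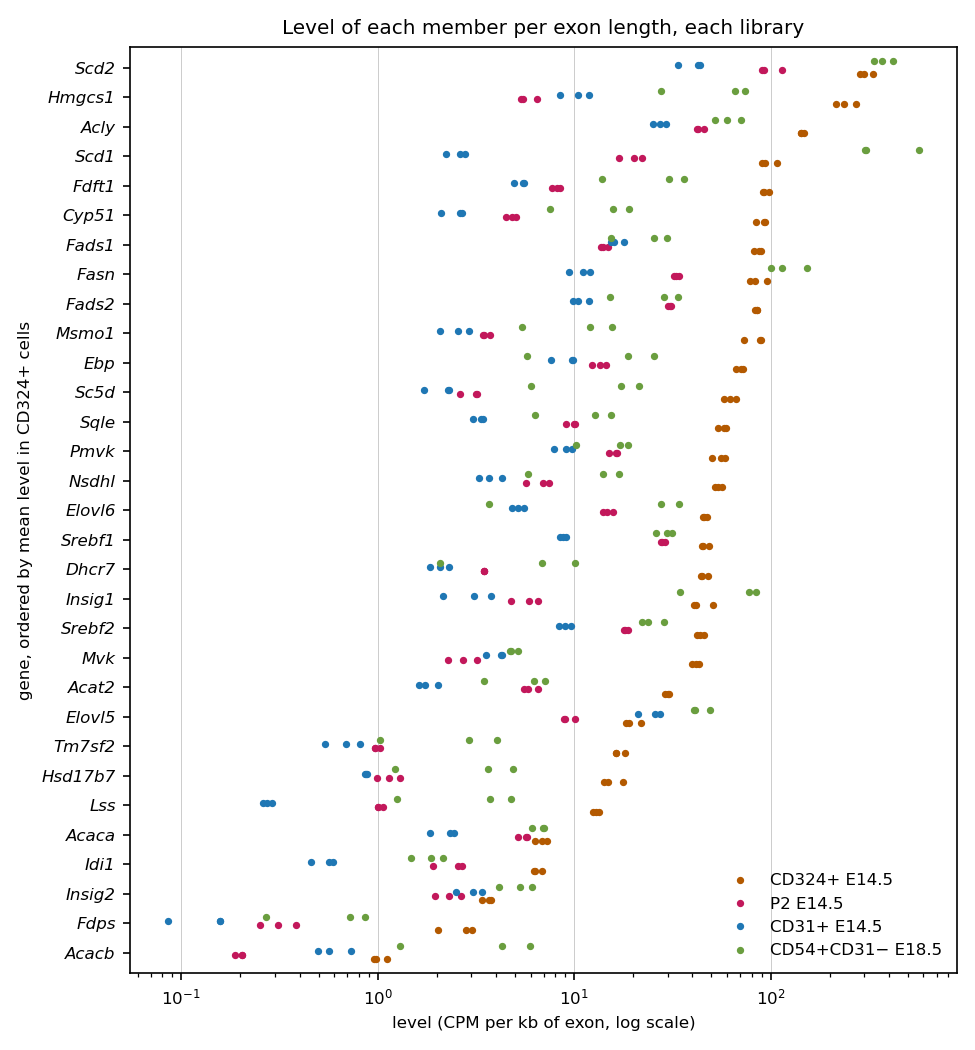
Level of each member (vertical axis, ordered by the mean in CD324+ cells) in CPM per kb of exon on a log scale, with 1 point per library and 1 color per group. CD324+ points lie to the right of P2 and CD31+ points for nearly all genes, *Hmgcs1* drops from 241 to 5.78 CPM per kb between CD324+ and P2 cells, and *Scd1* and *Acacb* reach their highest levels at E18.5.

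P2 cells had lower levels than CD324+ cells in every member tested. All 31 members were called lower and 0 higher (edgeR's quasi-likelihood test), where 36.1% of all genes were called lower and 33.8% higher. With all 31 lower, none can be higher at an unadjusted p below 0.05, and DESeq2 also called 0 higher. The median log2 fold change of the members was −2.40 (range −5.40 to −0.32), against −0.01 over all genes, and 19 members were more than 4-fold lower, as were 19.6% of all genes. The median of the sterol arms was −3.68 over 17 genes, 15 of them more than 4-fold lower. That of the fatty acid arm was −1.65 over 10 genes, and that of the 4 regulators −1.01. With the authors' own library factors in place of edgeR's, 38.2% of the calls over all genes were higher rather than 48.3%, and 31 members were again called lower.

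CD31+ cells were lower still in most members. Against CD324+ cells, 29 members were called lower, 1 higher, and 1 was not called, where 34% of all genes were called lower and 31.7% higher. The median was −3.60, against −0.03 over all genes, and 27 members were more than 4-fold lower, as were 10.7% of all genes. All 17 sterol genes tested were among them (median −4.17). The 1 member called higher was *Elovl5*, and *Insig2* was the one not called. Both comparisons use the same CD324+ libraries, so they are not independent, and the comparison with E18.5 uses them too.

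Between P2 and CD31+ cells the difference was smaller and mostly in favor of P2 cells. Of the 31 members, 25 were called higher in P2 cells and 6 lower, where 34.3% of all genes were called higher and 39.4% lower, and 13 were more than 2-fold higher, as were 17.1% of all genes. The median was 0.83, against −0.13 over all genes. The 6 lower members were *Hmgcs1*, *Mvk*, *Acacb*, *Elovl5*, *Fads1*, and *Insig2*. This comparison depended most on scaling: with the authors' factors 33.9% rather than 46.6% of the calls over all genes were higher, 20 members were called higher in P2 cells, and the members' median was 0.46 against −0.50 over all genes. Seen over all 3 pairwise tests, 25 of the 31 members had the order CD324+ above P2 above CD31+ with each step called, an order found in 3.88% of all genes.

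**Figure D3:**
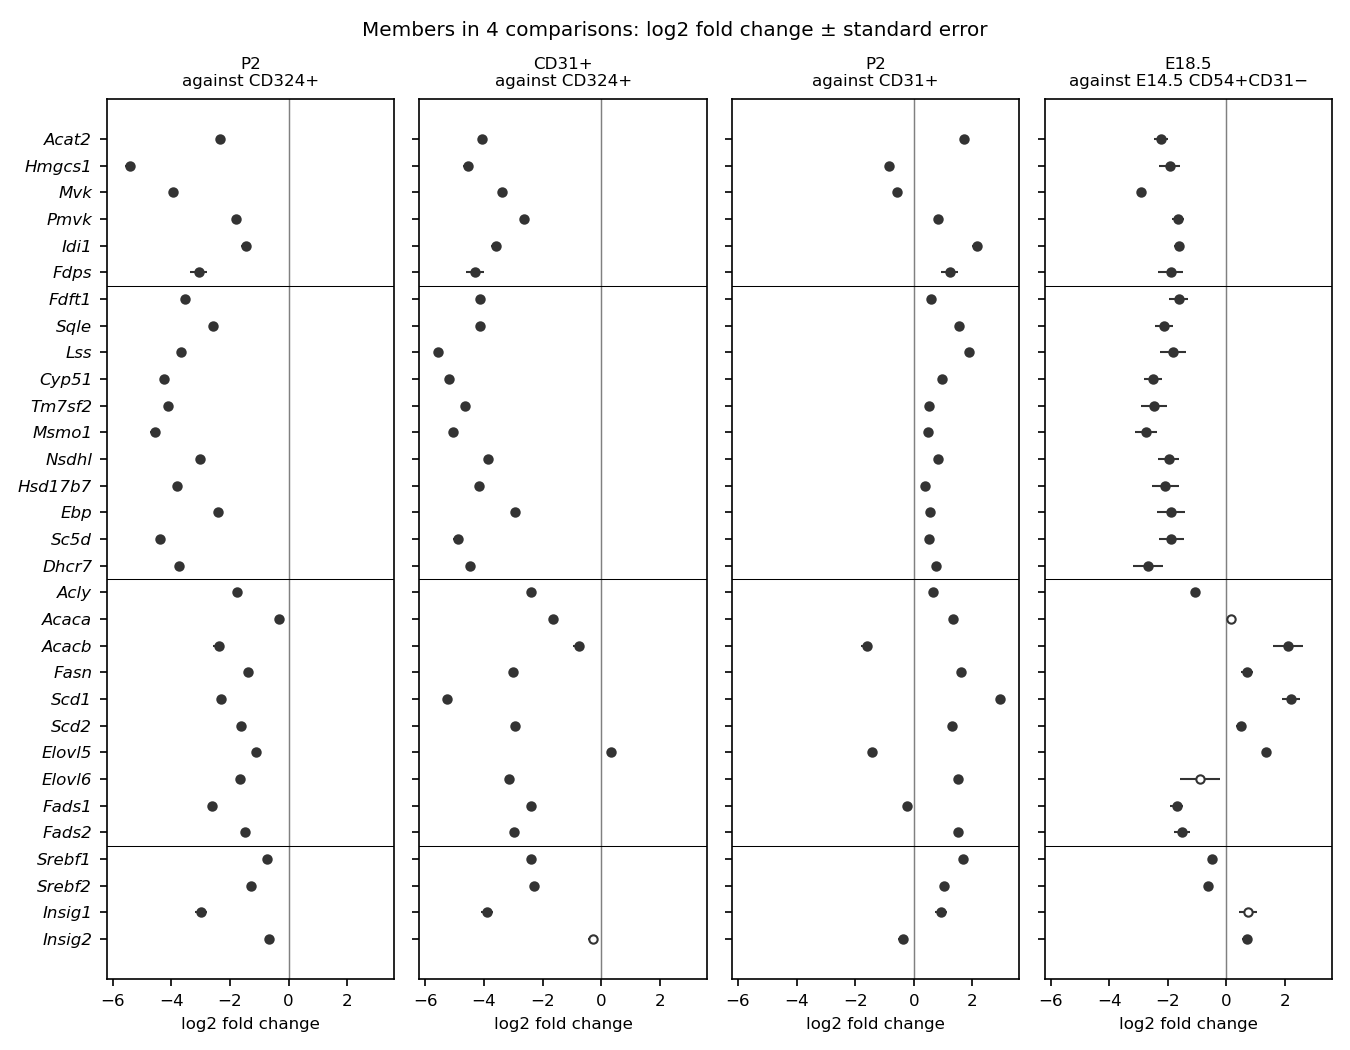
Log2 fold change of each member (points, with bars for the standard error, 3 libraries per group) in the 4 comparisons, with filled points for adjusted p below 0.05 and horizontal lines between the mevalonate arm, squalene to cholesterol, fatty acids, and regulators. All points lie left of 0 for P2 against CD324+ cells, most lie right of 0 for P2 against CD31+ cells, and at E18.5 the sterol genes lie left of 0 while the fatty acid genes spread from −1.70 to 2.21.

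In the mevalonate arm, *Hmgcs1*, which makes HMG-CoA, had 991, 1084, and 1252 CPM in CD324+ cells, 25.2, 24.8, and 29.7 CPM in P2 cells, and 38.9, 47.9, and 55.0 CPM in CD31+ cells. The 3 groups did not overlap, and P2 cells were the lowest. The log2 fold change was −5.40 ± 0.17 (SE, adjusted p = 1.14e-09) for P2 and −4.56 ± 0.16 (adjusted p = 3.54e-09) for CD31+ against CD324+ cells. *Mvk*, mevalonate kinase, had 112, 116, and 106 CPM in CD324+ cells, 7.26, 8.60, and 6.12 in P2 cells, and 11.5, 11.4, and 9.57 in CD31+ cells. It shared the order of *Hmgcs1*, with P2 cells below CD31+ cells by a log2 fold change of −0.57 ± 0.13 (adjusted p = 0.00219), and *Hmgcs1* by −0.84 ± 0.14 (adjusted p = 0.0003). *Acat2*, the cytosolic thiolase that starts the arm, had 76.1, 73.7, and 77.4 CPM in CD324+ cells, 14.7, 14.2, and 16.7 in P2 cells, and 4.44, 4.13, and 5.15 in CD31+ cells. Here P2 cells lay above CD31+ cells without overlap, by 1.72 ± 0.11 on the log2 scale. *Idi1*, the isopentenyl diphosphate isomerase, had 22.1, 24, and 22 CPM in CD324+ cells, 9.39, 9.01, and 6.74 in P2 cells, and 1.60, 2.07, and 1.98 in CD31+ cells, and was the mevalonate gene least reduced in P2 cells (−1.46 ± 0.15, adjusted p = 1.13e-05). *Pmvk*, phosphomevalonate kinase, and *Fdps* had log2 fold changes of −1.79 and −3.07 in P2 relative to CD324+ cells, and of 0.83 and 1.22 relative to CD31+ cells.

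From squalene to cholesterol, all 11 genes followed the order CD324+ above P2 above CD31+ cells. *Msmo1*, which removes methyl groups from the sterol ring, had 449, 540, and 550 CPM in CD324+ cells, 22.9, 21.5, and 21.2 in P2 cells, and 12.8, 17.9, and 15.7 in CD31+ cells. CD324+ libraries were far above the rest, while P2 and CD31+ libraries lay close together without overlapping. *Cyp51*, the lanosterol demethylase, had 374, 410, and 415 CPM in CD324+ cells, 21.4, 19.9, and 22.4 in P2 cells, and 11.8, 9.27, and 11.6 in CD31+ cells. *Sc5d*, a sterol desaturase, had 283, 302, and 325 CPM in CD324+ cells, 15.3, 12.8, and 15.6 in P2 cells, and 8.41, 11.2, and 11.1 in CD31+ cells. In P2 relative to CD324+ cells these 3 genes had log2 fold changes of −4.57 ± 0.14, −4.25 ± 0.12, and −4.40 ± 0.14. *Lss*, lanosterol synthase, which closes the sterol rings, had 140, 134, and 144 CPM in CD324+ cells, 10.8, 10.8, and 11.4 in P2 cells, and 2.96, 2.80, and 3.12 in CD31+ cells. It had the largest difference of any member between CD31+ and CD324+ cells (−5.56 ± 0.10, adjusted p = 1.21e-10) and was higher in P2 than in CD31+ cells by 1.88 ± 0.09. *Dhcr7*, the last reductase of one branch, had 261, 257, and 280 CPM in CD324+ cells, 20.3, 20.3, and 20.2 in P2 cells, and 10.7, 12.1, and 13.3 in CD31+ cells. Its P2 libraries were nearly identical and stood above the CD31+ libraries without overlap.

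The other 6 genes from squalene to cholesterol differed by −4.11 to −2.40 between P2 and CD324+ cells. They were *Fdft1* (squalene synthase, −3.55), *Sqle* (squalene epoxidase, −2.57), *Tm7sf2* (a sterol reductase, −4.11), *Nsdhl* (a sterol dehydrogenase, −3.03), *Hsd17b7* (a keto-reductase, −3.79), and *Ebp* (a sterol isomerase, −2.40). Against CD31+ cells the largest of the 6 was *Sqle* (1.55 ± 0.09, adjusted p = 1.3e-07), with 55.2, 50.3, and 56.0 CPM in P2 cells and 17.0, 18.6, and 19.1 CPM in CD31+ cells. The smallest was *Hsd17b7* (0.37 ± 0.13, adjusted p = 0.0202), which was not called without P2 replicate 3 (adjusted p = 0.0882). With the authors' factors *Tm7sf2*, *Msmo1*, *Hsd17b7*, *Ebp*, and *Sc5d* were not called between P2 and CD31+ cells. Their log2 fold changes were then between 0.00 and 0.19. With all 12 libraries in one edgeR fit, these genes, *Fdft1*, and *Dhcr7* were not called in that comparison (adjusted p = 0.0534 to 0.371).

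The fatty acid arm held both large and small differences. *Scd1*, the stearoyl-CoA desaturase typical of adult liver, had 460, 441, and 528 CPM in CD324+ cells, 98.7, 82.6, and 109 in P2 cells, and 10.9, 13.7, and 12.9 in CD31+ cells. Its difference between P2 and CD31+ cells was the largest of any member (2.94 ± 0.14, adjusted p = 5.5e-08), with no overlap between any groups. *Scd2*, the desaturase typical of embryonic tissues, had 1636, 1551, and 1815 CPM in CD324+ cells, 505, 496, and 625 in P2 cells, and 184, 234, and 239 in CD31+ cells, and differed by −1.64 ± 0.13 between P2 and CD324+ cells. *Fasn*, fatty acid synthase, had 1044, 859, and 916 CPM in CD324+ cells, 360, 355, and 374 in P2 cells, and 103, 121, and 131 in CD31+ cells, and differed by −1.39 ± 0.11 and −2.99 ± 0.12 from CD324+ cells in P2 and CD31+ cells.

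The carboxylases, which commit acetyl-CoA to fatty acids, differed from each other. *Acaca*, the cytosolic form, had 124, 108, and 117 CPM in CD324+ cells, 97.0, 88.5, and 98.7 in P2 cells, and 39.7, 31.4, and 41.6 in CD31+ cells. P2 libraries lay just below the CD324+ libraries, and the call was the weakest of the 31 in that comparison (−0.32 ± 0.12, adjusted p = 0.0314). It was lost without CD324+ replicate 1 or 3 or without any of the 3 P2 libraries (adjusted p = 0.0521 to 0.129). *Acacb*, which produces malonyl-CoA at mitochondria, had 10.8, 9.41, and 9.25 CPM in CD324+ cells, 1.95, 1.81, and 1.96 in P2 cells, and 7.02, 5.47, and 4.80 in CD31+ cells. P2 cells were the lowest and did not overlap the others (−1.60 ± 0.18 against CD31+ cells, adjusted p = 1.73e-05).

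Elongases and the polyunsaturated fatty acid desaturases made up the rest of the arm. *Elovl5*, which elongates polyunsaturated fatty acids, had 66.6, 64.7, and 77.2 CPM in CD324+ cells, 31.4, 31.6, and 35.6 in P2 cells, and 74.1, 90.9, and 96.0 in CD31+ cells. CD31+ and CD324+ libraries overlapped, and the call of 0.32 ± 0.12 (adjusted p = 0.0332) was lost without CD324+ replicate 1 or 2, CD31+ replicate 2 or 3, or P2 replicate 1 (adjusted p = 0.119 to 0.266). P2 cells were below both groups (−1.10 ± 0.12 against CD324+ cells). *Elovl6*, which elongates palmitate, *Fads2*, the Δ6 desaturase, and *Acly* had the order of most members, with −1.66, −1.49, and −1.75 for P2 against CD324+ cells. *Fads1*, the Δ5 desaturase, had 67.6, 65.9, and 71.9 CPM in P2 cells and 73.7, 86.5, and 77.1 in CD31+ cells. The difference (−0.22 ± 0.09, adjusted p = 0.0397) was lost in 12 of 18 alternatives, among them without CD31+ replicate 2 (−0.09) or P2 replicate 1 (−0.13).

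Among the regulators, *Srebf1*, which encodes the SREBP-1 forms that act mainly on fatty acid genes, had 273, 256, and 251 CPM in CD324+ cells, 156, 163, and 157 in P2 cells, and 47.6, 51.3, and 49.4 in CD31+ cells. *Srebf2*, whose product acts mainly on cholesterol genes, had 328, 304, and 315 CPM in CD324+ cells, 130, 130, and 136 in P2 cells, and 59.8, 64.7, and 68.9 in CD31+ cells. Neither gene's groups overlapped, and in P2 relative to CD324+ cells *Srebf1* differed by −0.73 ± 0.08 and *Srebf2* by −1.28 ± 0.08 on the log2 scale. *Insig1*, itself a known SREBP target, had 126, 129, and 158 CPM in CD324+ cells, 18.3, 14.7, and 20.2 in P2 cells, and 6.63, 9.55, and 11.7 in CD31+ cells. At −2.98 ± 0.20 its difference between P2 and CD324+ cells was the largest of the 4 regulators. *Insig2*, which is not known as an SREBP target, had 13.1, 11.8, and 12.8 CPM in CD324+ cells, 8.04, 9.24, and 6.82 in P2 cells, and 10.7, 11.7, and 8.65 in CD31+ cells. CD31+ libraries overlapped P2 libraries and lay just below CD324+ libraries: the P2 difference from CD31+ cells (−0.38 ± 0.16, adjusted p = 0.0486) was lost in 10 of 18 alternatives, and CD31+ cells differed from CD324+ cells by −0.29 ± 0.15 (adjusted p = 0.125), a call gained without CD31+ replicate 2 (−0.47, adjusted p = 0.0373).

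At E18.5 the sterol genes were lower than at E14.5, while the fatty acid genes were split. Against E14.5 CD324+ cells, 22 members were called lower, 6 higher, and 3 were not called, where 33.5% of all 15863 genes were called lower and 35.9% higher. The members' median was −1.65, against 0.03 over all genes, and 8 members were more than 4-fold lower, as were 5.03% of all genes. All 17 sterol genes were called lower, between −2.90 and −1.63. In the fatty acid arm 5 genes were called higher, 3 lower, and 2 were not called (median 0.32), near the shares of all genes. The summed sterol level was 429, 990, and 1199 CPM at E18.5, below each of the E14.5 libraries. The summed fatty acid level was 7482, 5468, and 5913 CPM, above each of those libraries. Its mean was 6288 against 5035 CPM. That of *Scd1* alone was 1926 against 476 CPM, a larger difference than in the whole sum. The comparison moved together with the cell type markers: the mean summed level at E18.5 was 46.2% of E14.5 for the 9 hepatoblast markers and 43.7% for the erythroid markers, and it was 3.85 times as high for the endothelial, 2.43 times for the macrophage, 24.3 times for the 8 mesenchymal, and 84.8 times for the 8 lung epithelium markers. Of the 8 macrophage markers only *Lyz2* (309 against 23.3 CPM) was called higher, and 7 were not called. The median log2 fold change of the 8 was −0.23. Most of the lung sum in E14.5 CD324+ cells was *Abca3* (157 of 159 CPM). The hepatoblast sum was carried by *Alb* and *Afp*. Of the other markers, *Hnf4a* (101 against 559 CPM), *Dlk1* (998 against 2580), *Krt18* (260 against 555), and *Krt8* (171 against 244) were also lower at E18.5. By the same means *Foxa2* (50.2 against 37.7 CPM) and *Ahsg* (4486 against 3429 CPM) were higher. *Fgb* (3219 against 3339 CPM) was near its E14.5 mean. E18.5 replicate 1 had only 461 CPM of *Ahsg* and 309 CPM of *Fgb*. The part of these markers in the differences was not tested. Age and cell content differed together between these groups, so they cannot be told apart for any gene below.

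Of the sterol genes, *Mvk* had the largest difference, with 12.8, 12.6, and 13.9 CPM at E18.5 (−2.90 ± 0.09, adjusted p = 1.21e-05). Its 3 E18.5 libraries were close together, unlike those of most sterol genes. *Msmo1* had 33.4, 73.8, and 95.7 CPM (−2.74 ± 0.37), *Dhcr7* 12.1, 39.7, and 58.5 CPM (−2.68 ± 0.52), and *Cyp51* 33.1, 69.5, and 84.0 CPM (−2.50 ± 0.32). In these 3 genes replicate 1 was the lowest library, and all 3 libraries lay below those of E14.5. *Hmgcs1* had 128, 301, and 341 CPM (−1.93 ± 0.35), *Acat2* 8.84, 15.8, and 18.1, *Idi1* 5.19, 6.56, and 7.58, *Lss* 13.5, 40.2, and 51.2, and *Sc5d* 29.5, 84.2, and 104 CPM. The smallest differences were those of *Idi1* and *Fdft1* (both −1.63) and *Pmvk* (−1.65). *Lss* was at −1.82 and *Sc5d* at −1.88, and the remaining genes lay between −2.48 and −1.89.

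In the fatty acid arm *Scd1* had the largest difference, with 2799, 1502, and 1476 CPM at E18.5 (2.21 ± 0.31, adjusted p = 0.000725). *Acacb* was higher by 2.09 ± 0.50 (adjusted p = 0.00884), with 12.5, 41.3, and 57.4 CPM, and *Elovl5* by 1.33 ± 0.12 (adjusted p = 0.000125), with 172, 145, and 143 CPM. For all 3 genes the E18.5 libraries lay above the E14.5 libraries, but replicate 1 was the highest for *Scd1* and *Elovl5* and the lowest for *Acacb*. *Fasn* had 1669, 1106, and 1248 CPM (0.70 ± 0.21, adjusted p = 0.0237) and lost its call without CD324+ replicate 2 or 3 (adjusted p = 0.0888 and 0.0718). *Scd2* had 2302, 1842, and 2021 CPM (0.49 ± 0.18, adjusted p = 0.0451) and lost its call in 7 of 14 alternatives, among them the removal of any CD324+ library or of E18.5 replicate 2 or 3. *Acaca* had 104, 119, and 121 CPM, overlapping the E14.5 libraries (0.16 ± 0.10, adjusted p = 0.215), and was called higher in 2 of 14 alternatives (0.30 to 0.39, adjusted p = 0.0187 to 0.0334). *Fads1*, *Fads2*, and *Acly* were lower by 1.70, 1.53, and 1.06 on the log2 scale, and *Elovl6* was not called.

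The 4 regulators differed by −0.64 to 0.74 at E18.5. *Srebf1* had 167, 147, and 177 CPM (−0.48 ± 0.12, adjusted p = 0.00831) and *Srebf2* 205, 159, and 171 CPM (−0.64 ± 0.14, adjusted p = 0.00514), below the E14.5 libraries without overlap. With the authors' factors neither was called (−0.25, adjusted p = 0.137, and −0.40, adjusted p = 0.0529). *Insig2* had 21.2, 14.5, and 18.5 CPM (0.71 ± 0.17, adjusted p = 0.00836). *Insig1* had 107, 240, and 262 CPM, so that replicate 1 lay below and the others above the E14.5 libraries (0.74 ± 0.31, adjusted p = 0.072). Without replicate 1 it was called higher (1.03, adjusted p = 2.76e-05).

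Replicate 1 of the E18.5 libraries was the lowest of the 3 in 11 of 11 genes from squalene to cholesterol, at a median of 0.313 of the mean of replicates 2 and 3. In the fatty acid arm it was the highest in 4 genes and the lowest in 6, from *Elovl6* at 0.119 (23.6 CPM, against 177 and 221) to *Scd1* at 1.88. The same ratio was 0.109 at the median of the hepatoblast markers and 2.12 at that of the lung markers, and replicate 1 was the highest library in 8 of 8 lung markers. Without it, 23 members were called lower and 7 higher, where 35.9% of 16074 genes were called lower and 36.8% higher, and all 17 sterol genes were again lower (median −1.64, range −2.90 to −1.32). *Elovl6*, which was not called with all libraries (−0.91 ± 0.68, adjusted p = 0.272), was then called lower (−0.41, adjusted p = 0.00785).

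**Figure D4:**
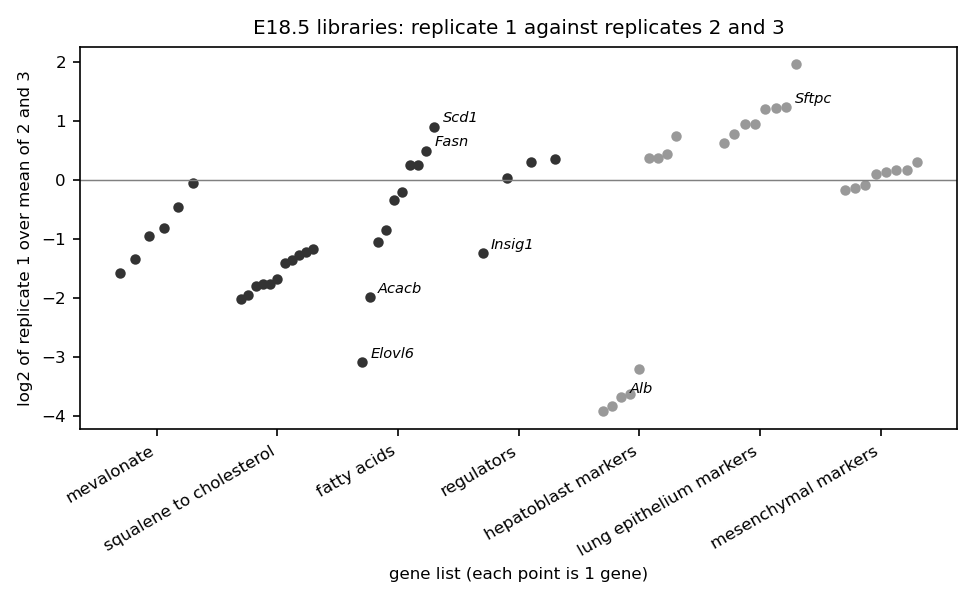
Level in E18.5 replicate 1 over the mean of replicates 2 and 3 (vertical axis, log2) for each member and for the hepatoblast, lung epithelium, and mesenchymal markers (1 point per gene). The sterol points lie below 0, the fatty acid points run from *Elovl6*, the lowest, to *Scd1*, all lung markers lie above 0, and the hepatoblast markers split into 5 below and 4 above 0.

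Ratios between paralogs compare genes of like function within a library, so that no library factor can move them. For 4 pairs the log2 ratio per exon length was compared over the 12 libraries in their 4 groups with an exact permutation test over 369600 assignments, adjusted over the 4 pairs, whose smallest possible p was 6.49e-05. *Scd1* over *Scd2* was −1.65 ± 0.02 (SD, n = 3 libraries) in CD324+ cells, −2.33 ± 0.12 in P2 cells, −3.97 ± 0.07 in CD31+ cells, and 0.00 ± 0.39 at E18.5 (exact p = 6.49e-05, adjusted 0.00026). The 4 groups did not overlap, and E18.5 libraries, at 0.44, −0.13, and −0.29, had the 2 desaturases at about equal levels per exon length. *Acaca* over *Acacb* was highest in P2 cells, at 4.81 ± 0.02, against 2.75 ± 0.08 in CD324+ cells, 1.89 ± 0.35 in CD31+ cells, and 1.06 ± 1.04 at E18.5 (exact p = 0.00136, adjusted 0.00136). CD31+ and E18.5 libraries overlapped in this ratio, because replicate 1 at E18.5 had 2.23 and the others 0.70 and 0.24.

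*Srebf1* over *Srebf2* also was highest in P2 cells, at 0.62 ± 0.06, against 0.07 ± 0.04 in CD324+ cells, −0.03 ± 0.08 in CD31+ cells, and 0.23 ± 0.18 at E18.5 (exact p = 0.00136, adjusted 0.00136). P2 libraries lay above all others, E18.5 libraries overlapped CD324+ libraries, and CD31+ libraries lay just below CD324+ libraries. *Insig1* over *Insig2* fell from 3.62 ± 0.18 in CD324+ cells and 3.57 ± 0.93 at E18.5 to 1.31 ± 0.45 in P2 cells and −0.02 ± 0.57 in CD31+ cells (exact p = 0.000779, adjusted 0.00136). CD324+ and E18.5 libraries overlapped, and both P2 and CD31+ libraries lay below them. Between single pairs of groups, 3 libraries against 3 cannot give an exact p below 0.1.

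**Figure D5:**
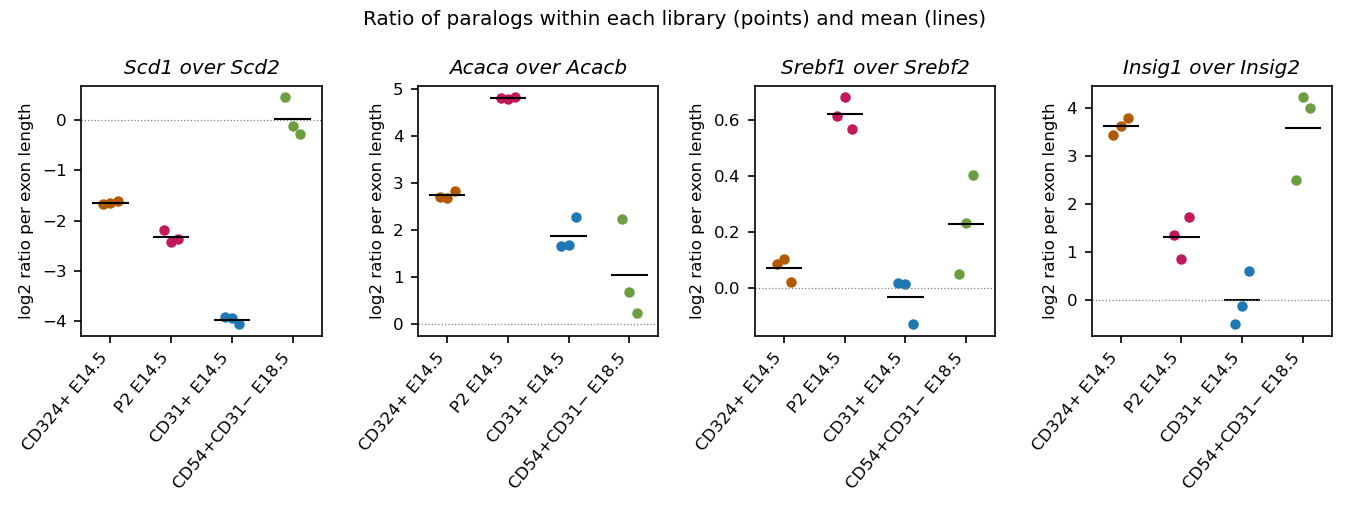
Log2 ratio per exon length of 4 pairs of paralogs (vertical axes, different scales) in each library (points) with the mean of each group (lines). The ratio of *Scd1* to *Scd2* runs from −3.97 in CD31+ cells to 0.00 at E18.5, P2 cells are highest for *Acaca* over *Acacb* and *Srebf1* over *Srebf2*, and CD324+ and E18.5 libraries are highest for *Insig1* over *Insig2*.

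Genes of the same pathways outside the 32 were examined in 4 lists. Their counts stand beside the shares of all genes called: 36.1% lower and 33.8% higher in P2 than in CD324+ cells, 34% lower and 31.7% higher in CD31+ than in CD324+ cells, 39.4% lower and 34.3% higher in P2 than in CD31+ cells, and 33.5% lower and 35.9% higher at E18.5. Of 15 other synthesis genes, 14 were tested: 10 were called lower and 2 higher in P2 than in CD324+ cells, 13 lower and 1 higher in CD31+ than in CD324+ cells, and 7 higher and 5 lower in P2 than in CD31+ cells, where the 5 lower are near the share of all genes. *Elovl2*, an elongase of polyunsaturated fatty acids, differed by −6.84 between P2 and CD324+ cells, *Elovl7*, another elongase, by −4.55, and *Acss2*, which activates acetate, was higher in P2 than in CD31+ cells by 2.65. At E18.5, 8 of the 14 were called lower and 4 higher.

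Of 10 genes that control SREBP and lipogenic transcription, 5 were called lower and 3 higher in P2 than in CD324+ cells, near the shares of all genes (36.1% and 33.8%). Further counts were 6 lower and 1 higher in CD31+ than in CD324+ cells, 5 higher and 4 lower in P2 than in CD31+ cells, and 6 lower and 1 higher at E18.5. *Mlxipl*, which encodes the glucose-responsive factor ChREBP, differed by −6.28 between P2 and CD324+ cells and −2.76 at E18.5, and *Nr1h3*, the liver X receptor alpha gene, by −5.14 and −2.23. *Scap*, the escort of SREBP, was higher in P2 than in CD31+ cells by 1.43, and *Ppargc1b*, a coactivator gene, was higher in CD31+ than in CD324+ cells by 3.28.

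Of 12 genes of cholesterol uptake, export, and esterification, 11 were called lower and 1 higher in P2 than in CD324+ cells, 9 lower and 2 higher in CD31+ than in CD324+ cells, 9 lower and 2 higher in P2 than in CD31+ cells, and 7 lower and 4 higher at E18.5, where the 4 higher are near the share of all genes (35.9%). The lipoprotein receptor genes *Vldlr* and *Lrp1* differed by −6.73 and −5.93 between P2 and CD324+ cells. *Soat1*, which esterifies cholesterol, and *Abcg1*, a sterol exporter, differed by −4.78 and −4.34 between P2 and CD31+ cells. Both were highest among P2 libraries in replicate 2 (7.43 CPM against 2.87 and 3.37 for *Soat1*, and 8.72 against 3.15 and 4.97 for *Abcg1*), without which they differed by −5.32 and −4.79. *Soat2*, the esterifying enzyme of hepatocytes and enterocytes, differed by −5.43 between CD31+ and CD324+ cells and −4.11 at E18.5, where *Npc2*, a lysosomal sterol carrier, was higher by 2.77.

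Of 13 genes of fatty acid oxidation and ketogenesis, 12 were called lower and 0 higher in P2 than in CD324+ cells, where all 13 estimates were below 0 and 36.1% of all genes were called lower. In CD31+ relative to CD324+ cells 12 were lower and 1 higher, against 34% and 31.7% of all genes. *Ppara*, a regulator of fatty acid oxidation, differed by −6.09 between P2 and CD324+ cells. Relative to CD31+ cells, 6 genes were called higher and 5 lower in P2 cells, close to the shares of all genes (34.3% and 39.4%), with *Ehhadh*, a peroxisomal enzyme, higher by 2.09. At E18.5, 6 of 13 were called lower and 1 higher (33.5% and 35.9% of all genes), with *Cpt2*, which forms acyl-CoA from acylcarnitine inside mitochondria, at −1.93.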

How the data were processed

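Single-end RNA-seq of 12 sorted samples of mouse FL was analysed. Per the labels and the study's methods, ribosomal RNA was removed enzymatically and libraries were made with a stranded total RNA kit for small inputs. The submitters' processing notes name cutadapt 1.11, STAR 2.5.0a, featureCounts 1.4.6-p3, R 3.5.1, and DESeq2, with GRCm38. Whether counting used strand, and how reads with several alignments were treated, is not given in the sources used here. The authors deposited raw counts per gene and, beside them, a score that is the count times 1 factor per library. Only the counts were tested; the score served to read the authors' factor.

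Counts were tested in R 4.3.3 with edgeR 4.0.16 (TMM, filterByExpr, quasi-likelihood test, Benjamini-Hochberg adjustment over all genes, threshold 0.05), without covariates beside the population. One fit held the 9 E14.5 libraries (15461 genes), and another the 6 CD54+CD31− libraries (15863 genes). Levels are CPM on TMM-adjusted library sizes, and standard errors are the log2 fold change over the square root of F. Coordinates and exon lengths are from GENCODE vM21, which held 37932 of the 38127 identifiers; 39 gene names occur more than once. The tests were tried on simulated counts. DESeq2 1.42.0 was an alternative. No replicate pair of a group agreed within sampling noise (the lowest chi-square over its degrees of freedom was 38.6).

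The members and lists were chosen with earlier results of these data known. All members are named; values of every library are given for the 4 members with the largest called changes without overlap in each comparison and for 4 paralog pairs. Genes outside the members are the 2 largest called changes per list and comparison; some genes this rule names are not reported here. Other values of members were added for completeness. Replicate numbers come from the sample labels. Deviations of same-numbered CD31+ and CD324+ libraries from their group means correlated by 0.122 to 0.334, so these numbers were taken to pair those samples. The p-values given come from the fit without this pairing, and a fit with the replicate as a block was an alternative. Between the other groups compared, at least 1 correlation was at most 0.1.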

Additional observations from a re-analysis of the deposited data

How the results depend on the processing

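Over the alternatives, 2041 of 2108 values of members kept their direction and their side of the threshold, 59 lost the call, 8 gained one, and 0 were reversed. Of the 124 pairs of member and comparison, 20 changed their call in at least 1 alternative. Members called lower ranged from 30 to 31 in P2 against CD324+ cells, from 28 to 30 in CD31+ against CD324+ cells, and from 20 to 23 at E18.5. In P2 against CD31+ cells, members called higher ranged from 18 (all 12 libraries in one fit) to 25. The 1 member called higher in CD31+ against CD324+ cells, *Elovl5*, was 0 members with no low count filter and 0 to 1 when each library was left out in turn. With the replicate block, members called lower in P2 against CD31+ cells numbered 5 and members called higher at E18.5 numbered 5, because *Fads1* and *Scd2* were not called; it changed no other call among the members. Same-numbered libraries had mean correlations of their deviations of 0.0437 between CD324+ and P2 cells, 0.143 between CD31+ and P2 cells, and 0.0439 between CD324+ and E18.5 cells. The CD31+ and P2 values ran from 0.0152 to 0.336. In each of the 3 comparisons, 4 of 6 libraries correlated best with their own number. A pairing of these libraries was therefore neither shown nor excluded. The authors' factors shifted the median log2 fold change of all genes by −0.26 for P2 against CD324+ cells, −0.37 for P2 against CD31+ cells, 0.11 for CD31+ against CD324+ cells, and 0.23 at E18.5. DESeq2's size factors in edgeR shifted none of these by more than 0.03. The exact p of the 4 paralog ratios, adjusted over the 4 pairs, ranged from 6.49e-05 to 0.0138 over their alternatives. Of the 31 members tested, 28 had over 100 counts in every library; *Fdps*, *Idi1*, and *Acacb* did not (*Fdps* had as few as 20), and for these counting error adds to the limit set by 3 libraries per group. The causes of the changed calls were not tested.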
